A study of Mus musculus with 8 samples.

Results

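The cytosolic ribosomal protein genes were followed here as a group of constitutive promoters in an ATAC-seq experiment on acute EBF1 degradation. They were chosen by symbol from the protein-coding genes of the RefSeq table of GRCm38.p6, as Rpl or Rps followed by a digit plus Rplp0, Rplp1, Rplp2 and Rpsa, without the Rps6k kinases. This gave 91 of 21900 protein-coding genes, on 19 chromosomes. Of these, 46 were large subunit genes, 31 were small subunit genes and 14 were paralogues and others that the symbol takes in, such as Rpl3l, Rpl22l1 and Rps27l. Rps19bp1 is among the 14 although it encodes a binding partner of Rps19 and not a ribosomal protein. A region belonged to a gene when its centre lay within 1 kb of either end of the gene span.

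ATAC-seq measures accessible chromatin through the adapters that Tn5 transposase inserts into it. The cells were A-MuLV transformed pro-B cells of the mouse, that is, immature B cells immortalised by the Abelson virus, in 2 lines named EBF1-dTAG_C and EBF1-dTAG_N, in which a modified EBF1 took the place of the endogenous protein. The 4 groups were each line after 6 h with 0.5 uM dTAG-13, a compound that directs a dTAG-fused protein to degradation, and each line after DMSO, its solvent, with 2 libraries per group. The labels do not say whether a line is 1 clone, and both arms of a comparison carry the same modified EBF1. The libraries held 34202 to 42139 peaks each, their depth in reads is unknown, and 7 or 8 of 8 B lineage marker genes had a peak in every library, against 1 to 3 of 4 T cell and 0 to 2 of 4 myeloid genes.

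Each ribosome holds a single copy of nearly every ribosomal protein, and proliferating cells transcribe these genes steadily and in balance. Their promoters are compact and often lack a TATA box. Transcription typically begins at a cytosine within a run of pyrimidines, which places a terminal oligopyrimidine tract at the 5′ end of the mRNA and puts its translation under the control of mTORC1 and LARP1. EBF1, the transcription factor degraded here, specifies the B cell lineage and opens chromatin at B cell genes.

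The promoter sequences show what kind of start these regions cover. RefSeq promoter entries (GRCm38.p6, 250 bases before to 50 after a start) were found for 70 of the 91 genes. Below are 7 stretches of 85 bases, 60 before the start and 25 from it, read 5′ to 3′ on the gene's strand. Capitals mark an oligopyrimidine run beginning at the annotated start, the ETS core CCGGAAG or the EBF1 core CCCNNGGG. Rps6, Rpl15 and Rps18 are shown for the oligopyrimidine start, Rpl38 for that start beside an ETS core, Rps3a1 for the ETS core, Rplp2 for the EBF1 core, and Rps19 as the gene with the highest mean abundance in EBF1-dTAG_C, with none of the 3 elements in the stretch.
Rps6, chr4:86857343-86857427, minus strand: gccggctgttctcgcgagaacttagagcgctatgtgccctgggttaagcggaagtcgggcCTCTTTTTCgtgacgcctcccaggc
Rpl15, chr14:18270962-18271046, minus strand: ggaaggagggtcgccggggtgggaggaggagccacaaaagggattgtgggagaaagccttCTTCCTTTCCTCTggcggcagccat
Rps18, chr17:33955641-33955725, minus strand: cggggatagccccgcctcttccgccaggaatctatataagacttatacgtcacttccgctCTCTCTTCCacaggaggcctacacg
Rpl38, chr11:114668520-114668604, plus strand: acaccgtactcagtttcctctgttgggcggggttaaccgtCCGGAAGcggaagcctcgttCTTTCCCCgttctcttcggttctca
Rps3a1, chr3:86142644-86142728, minus strand: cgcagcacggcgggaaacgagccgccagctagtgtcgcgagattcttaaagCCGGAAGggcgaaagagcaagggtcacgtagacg
Rplp2, chr7:141447591-141447675, plus strand: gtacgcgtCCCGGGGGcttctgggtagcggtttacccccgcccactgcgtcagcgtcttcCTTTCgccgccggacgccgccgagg
Rps19, chr7:24884532-24884616, plus strand: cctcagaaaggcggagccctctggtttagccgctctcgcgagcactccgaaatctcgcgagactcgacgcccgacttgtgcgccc

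Motifs were counted in the 300-base promoters, on both strands for the ETS, YY1, SP and KLF, EBF1 and E box letters, and set beside 17492 promoters with 1 outermost start per gene. A C at the annotated start followed by at least 4 pyrimidines was found in 14 of the 70 promoters (20%) and in 2.17% of all promoters. With the start allowed to shift by up to 5 bases, these shares were 44.3% and 18.8%. The ETS core CCGGAAG was in 25 of 70 (35.7%) against 11.9% of all promoters, and against 17.0% of all promoters with a GC content of at least 55%. The YY1 core AAGATGG was in 14.3% against 6.35%, and the SP and KLF box GGGCGG in 57.1% against 46.3%. Among all promoters with a GC content of at least 55% the YY1 share was 6.18% and the GGGCGG share 72.8%, so that for GGGCGG the direction turned with the promoters set beside it. The E box CACGTG was in 7.14% against 7.91%. TATAAA, 20 to 40 bases before the start on the gene's strand, was found in Rpl22l1 alone, 1.43% against 2.83%. The EBF1 core CCCNNGGG was in 6 of 70 (8.57%) against 15.2% of all promoters. The 6 genes were Rplp2, Rpl39, Rps3a1, Rps12, Rps15 and Rpl37rt. The median GC content was 57% in these promoters and 56.3% in all. A match is a description of the letters and no evidence of binding.

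The genes are short, with a median span of 3175 bp against 17146 bp for all protein-coding genes. Small nucleolar RNA genes, which guide the modification of ribosomal RNA, lay inside 30 of the 91 spans (33.0%), against 1.70% of all protein-coding genes. Rpl13a held 4 of them, Rpsa and Rpl23a 3 each.

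In each of the authors' deposited tables, 104 regions lay at 81 of the 91 genes. A single region was found at 62 genes and more than 1 at 19. Of the 61 genes with both a region and a promoter entry, 55 had their most abundant region at an annotated start. Over all 61, the median distance of the most abundant region from a start was 73.5 bp in EBF1-dTAG_C and 69.5 bp in EBF1-dTAG_N. In 25 regions of each table the centre also lay within 1 kb of another protein-coding gene. The neighbouring pairs Rplp2 and Pidd1, Rpl37 and Card6, Rps18 and Vps52, and Rpl12 and Lrsam1 are examples, and a fold there cannot be assigned to either gene.

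The 10 members without a region by this rule were Rpl10l, Rpl17, Rpl31-ps12, Rpl32l, Rpl37rt, Rpl39l, Rps2, Rps23rg1, Rps27l and Rps27rt. For Rps2, a small subunit protein, this followed from the annotation: its promoter entry begins 1942 bp inside the gene span, and a region did lie there. That region had a log2 fold change of 0.10 at a log2 CPM of 7.12 in the authors' deposited table of EBF1-dTAG_C, and 0.16 (adjusted p = 0.0620) at 6.90 in that of EBF1-dTAG_N. Rps27l, a paralogue of Rps27, likewise had a region at its promoter entry, with deposited folds of 0.22 in EBF1-dTAG_C and 0.25 (adjusted p = 0.0431) in EBF1-dTAG_N. Both are kept out of the counts below.

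These regions were among the most accessible of the genome. The most abundant region of a member stood at a median percentile of 90.2 of all regions by mean abundance (log2 CPM) in EBF1-dTAG_C and 88.2 in EBF1-dTAG_N. It was in the top 10 percent for 41 and 35 of the 81 genes. Among the highest values in EBF1-dTAG_C were those of Rps19 (log2 CPM 7.63), Rps29 (7.56), Rpl13a (7.37), Rpl10 (6.92) and Rpl30 (6.91). The lowest were those of Rpl34-ps1 (1.18), Rpl22 (3.08), Rpl6 (3.85), Rps4x (3.91), Rpl37a (3.98) and Rpl8 (4.11). For Rpl22 only the region at its far end came under the rule, and the region at its annotated start, left out by the span, had a log2 CPM of 5.66. Abundance is not scaled to the width of a region. Gene-proximal regions in general were also abundant. The median log2 CPM of the 104 member regions was 5.36 in EBF1-dTAG_C and 5.26 in EBF1-dTAG_N, against 4.95 and 4.89 near any gene. The upper quartiles were close, 6.02 and 5.87 against 6.01 and 5.93.

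Peaks were called in single libraries, so that they give the only value per library. A peak summit within 1 kb of a span end was found in 81 and 81 genes in the EBF1-dTAG_C DMSO libraries and in 80 and 81 after dTAG-13. The EBF1-dTAG_N libraries had 81 and 80 with DMSO and 80 and 80 with dTAG-13. The groups overlapped in both lines. The difference, dTAG-13 minus DMSO, was -0.5 genes in each line (exact permutation test over 6 arrangements, two-sided p = 1 in each), and over both lines the exact permutation p was 0.5. That is the smallest value these tied counts allow. In all, 79 genes had a peak in all 8 libraries, 10 in none, and 2 in some, namely Rpl32 in 7 and Rpl34-ps1 in 5.

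Within a library, peaks can be ranked by the authors' fold enrichment over local background. The best peak of a member stood at a median percentile between 81.0 and 87.1 of its library's list. Rps3, which binds mRNA at the entry channel, was at 99.9, 99.9, 99.8 and 99.9 in the EBF1-dTAG_C lists (DMSO first) and at 99.3, 97.1, 99.9 and 99.7 in those of EBF1-dTAG_N. Rplp0, the base of the ribosomal stalk, was at 96.0 and 92.5 with DMSO and 96.1 and 92.3 after dTAG-13 in EBF1-dTAG_C, and at 93.4 and 90.6, then 93.4 and 92.2, in EBF1-dTAG_N. The ranks of Rplp0 overlapped between the treatments in both lines. Those of Rps3 did not overlap in either line. They were slightly higher with DMSO in EBF1-dTAG_C (99.91 and 99.9 against 99.77 and 99.85) and lower with DMSO in EBF1-dTAG_N. The direction for Rps3 was thus opposite in the lines. With so few libraries per group, the ranks of a gene can separate by chance. How many members separate in this way was not counted, so no difference between Rps3 and Rplp0 is concluded. The lists are of unequal length, and the ranks were not tested. Rpl34-ps1, carried by the table as a coding gene, ranked low, at 15.8 and 9.1 with DMSO in EBF1-dTAG_C and at 39.3 in the 1 dTAG-13 list with a peak.

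In EBF1-dTAG_C no region that could be placed at an annotated start of a ribosomal protein gene was called changed after dTAG-13. The authors' deposited table gave 2 falling regions among the 104, including a region past the end of Rpl38 (deposited adjusted p under 0.05), and none rising. Over all 54239 regions 6.62% fell and 0.308% rose. Near any protein-coding gene start or end, 2.11% of 11278 regions fell and 0.0975% rose. Among the 66 regions with a log2 CPM of at least 5 none rose or fell, against 1.23% falling and 0.0908% rising of such regions near any gene. At these shares few calls are expected among the 66 regions or the 60 at annotated starts. The lack of calls there is thus near the background. Neither of the 2 falling regions was the main region of its gene, and that of Rpl38 is described further on.

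The folds clustered closely around the table's own median. The median log2 fold change of the 104 regions in the authors' deposited table of EBF1-dTAG_C was 0.02 (quartiles -0.05 and 0.12), against 0.08 near any gene start or end and 0.09 over the whole table. Minus the table median, it was -0.07, so the sign depends on the scale. In 90 of the 104 regions (86.5%) the centred fold was within 0.25 of zero, against 76.3% of regions near any gene and 43.8% of all regions. The range of the deposited folds between quartiles was 0.18 in the group, 0.23 near any gene and 0.64 overall. Abundance moves with this spread, since the median log2 CPM was 5.36 in the group, 4.95 near any gene and 2.42 overall. Among regions with a log2 CPM of at least 5, the shares within 0.25 were 97.0% of 66 and 93.2% of 5508.

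**Figure D1:**
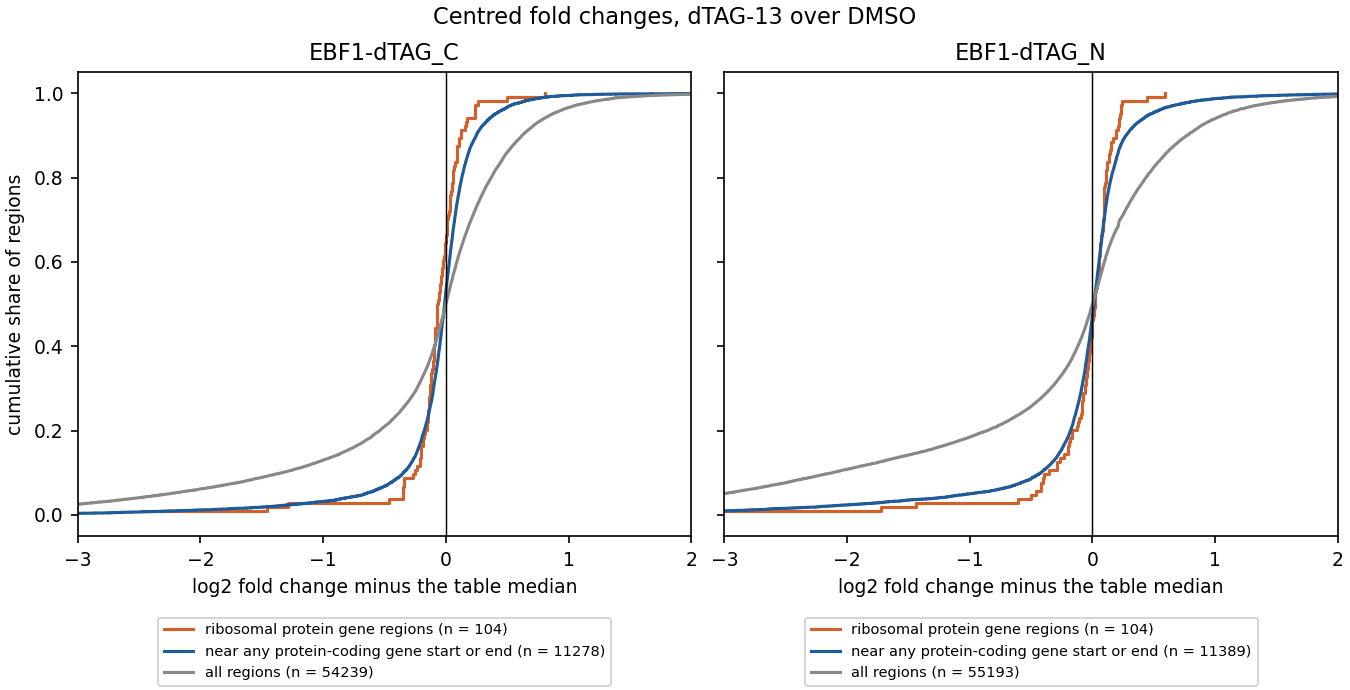
Cumulative share of regions (vertical axis) by log2 fold change, dTAG-13 over DMSO, minus the median of the table (horizontal axis, drawn from -3 to 2), for 104 ribosomal protein gene regions, all regions near a protein-coding gene start or end and all regions. The curve of the ribosomal protein genes is the steepest in both lines, with 86.5% (EBF1-dTAG_C) and 84.6% (EBF1-dTAG_N) of regions within 0.25 of zero.

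The precision of single genes limits what could be seen. From the deposited fold and F, an approximate 95% interval reached a median of 0.36 to either side for the 81 most abundant regions in EBF1-dTAG_C, from 0.20 for Rpl13a to 1.15 for Rpl34-ps1. The interval held the table median for 81 of 81 genes and 0 for 80, the exception being Rps3a1. Rps19 had a fold of -0.01 with an approximate interval from -0.22 to 0.21. For the stalk genes, which recruit the translational GTPases, the authors' deposited table of EBF1-dTAG_C gave 0.02 for Rplp0, 0.12 for Rplp1 and -0.01 for Rplp2. For Rpsa, a small subunit protein also known as the laminin receptor, it gave 0.03 at the start. A change smaller than these intervals would not have been detectable.

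In EBF1-dTAG_N many of the same promoters had small positive folds, and so did the table as a whole. The authors' deposited table called 30 regions at 30 ribosomal protein genes rising and 3 falling, with Rpl38 and Rpl23a among the latter. The rising share was 28.8% (30 of 104), against 27.1% of all regions near a gene start or end and 18.8% of all regions. The falling share was 2.88%, against 6.89% and 18.5%. The group's rising share was thus near that of other gene-proximal regions. Among regions with a log2 CPM of at least 5 it was 42.4% of 59, with 43.3% of 5399 near any gene, and none of the 59 fell, against 4.33%. The p-values of this table rest on a spread pooled over regions and are smaller than those of EBF1-dTAG_C for like folds.

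The rising regions were more abundant than the rest, with a median log2 CPM of 5.89 against 4.89 for the group's other regions. Their folds were small, and 1 of the 30 was at least 0.5. The 8 with the smallest adjusted p in the authors' deposited table of EBF1-dTAG_N begin with Rpl13a, a large subunit protein (0.31, adjusted p = 3.01e-06), and Rps19, a small subunit protein mutated in Diamond-Blackfan anaemia (0.30, adjusted p = 5.74e-06). Rps29 (0.27, adjusted p = 4.28e-05) and Rps3 (0.40, adjusted p = 0.000554) followed in the authors' deposited table. The others were Rpl30 (0.26, adjusted p = 0.00118), Rpl22l1 (0.41, adjusted p = 0.00122), Rps14 (0.33, adjusted p = 0.00131) and Rpl37 (0.25, adjusted p = 0.00159), all in the authors' deposited table. The folds of the same 8 genes in EBF1-dTAG_C were 0.10, -0.01, 0.13, -0.04, 0.02, 0.14, -0.01 and 0.12 in that order, and none was called. Rplp2 rose in EBF1-dTAG_N as well (0.32, adjusted p = 0.00191 in the authors' deposited table), whereas Rplp0 (0.19, adjusted p = 0.114) and Rplp1 (0.16, adjusted p = 0.170) were not called.

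Against the table median none of the 30 remained. The median fold of the 104 regions was 0.19 (quartiles 0.08 and 0.27) in the authors' deposited table of EBF1-dTAG_N, beside 0.18 near any gene and 0.17 over all regions, and 0.02 once centred. With centred folds and an approximate test adjusted over the whole table, 0 of 104 regions rose, against 7.98% of all regions and 4.37% near any gene. Centred folds fell in 4 genes, with Rps19 added through a region past its far end, against 20.8% and 9.75% of regions. In EBF1-dTAG_C the same centring left 3 falling genes, with Rpsa added, and 0 rising, where 7.39% of all regions fell and 0.162% rose, and 2.52% and 0.0266% of those near any gene. Of the 104 centred folds of EBF1-dTAG_N, 88 (84.6%) were within 0.25 of zero, against 73.4% near any gene and 38.0% overall. All 59 of the regions with a log2 CPM of at least 5 were within that band, against 90.3% of such regions near any gene.

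**Figure D2:**
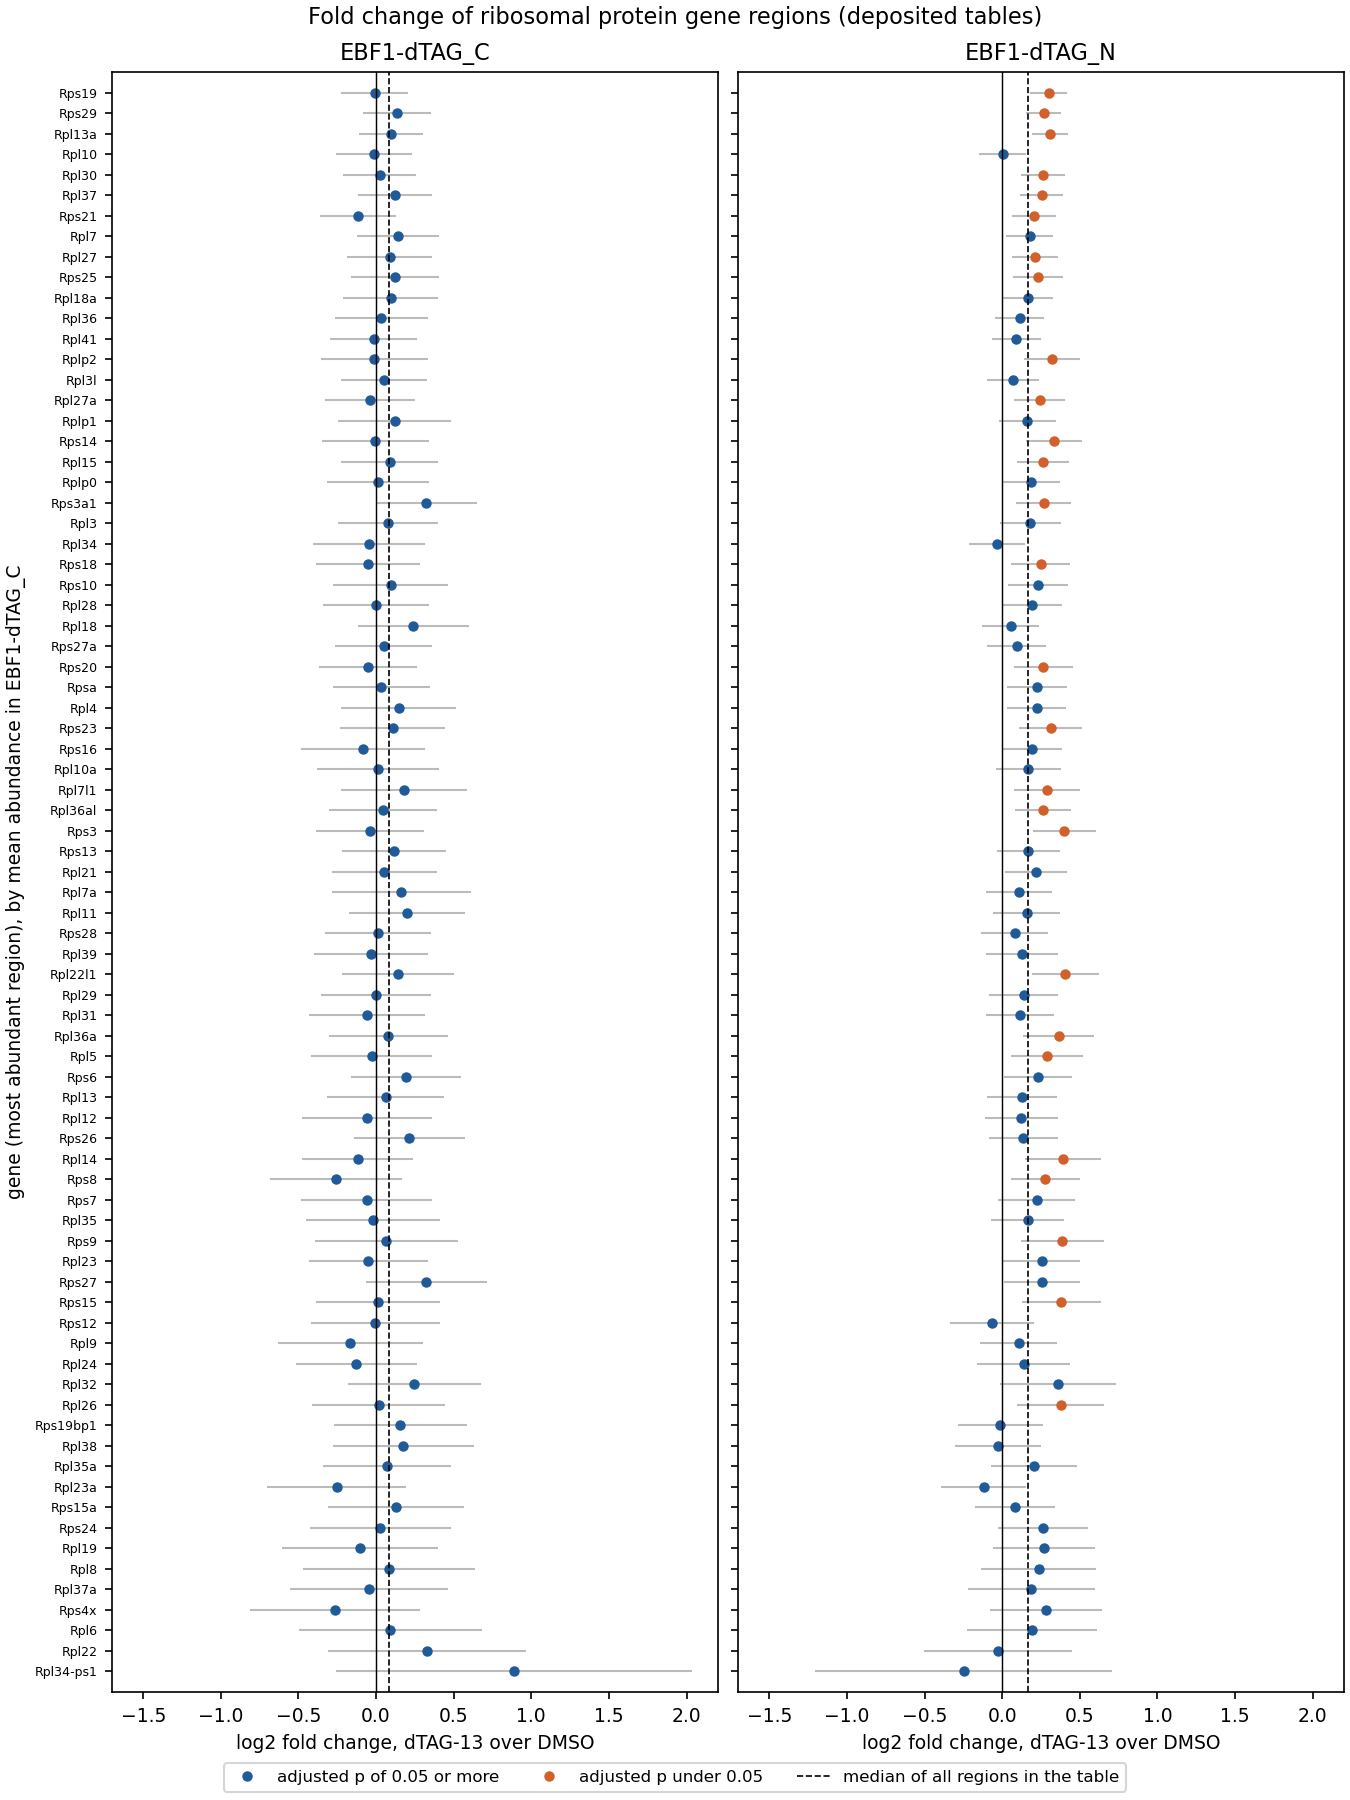
Log2 fold change, dTAG-13 over DMSO, of the most abundant region of 78 of the 81 genes in the authors' deposited tables, with genes ordered by mean abundance in EBF1-dTAG_C from Rps19 at the top to Rpl34-ps1 at the bottom. Points are folds, bars are approximate 95% intervals computed from the deposited F, the dashed line is the median of all regions of the table (0.09 and 0.17), and orange marks an adjusted p under 0.05: no gene in EBF1-dTAG_C and 27 genes in EBF1-dTAG_N.

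The subunits were also taken apart. In EBF1-dTAG_C the median log2 fold change was 0.01 for the 57 large subunit regions and 0.01 for the 36 small subunit regions, and 0.14 for the 11 regions of paralogues and others. In EBF1-dTAG_N it was 0.16, 0.23 and 0.17 over 58, 36 and 10 regions. Rises were called there for 12 large subunit (20.7%), 15 small subunit (41.7%) and 3 other regions (30%), against 27.1% of regions near any gene. With centred folds 0 rose in each class. The difference between the subunits was not tested.

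No start region fell, with or without an EBF1 core in its promoter. Of the 57 genes with a region at an annotated start and a promoter entry, 5 held CCCNNGGG (Rplp2, Rpl39, Rps3a1, Rps12 and Rps15). The median fold of these 5 was -0.00 in the authors' deposited table of EBF1-dTAG_C and 0.27 in that of EBF1-dTAG_N, with 0 falling in either. The 52 without it had medians of 0.03 and 0.21, again with 0 falling. Called rising in EBF1-dTAG_N were 3 of the 5 and 19 of the 52. Of all regions near a gene start or end, 2.11% fell in EBF1-dTAG_C, and 6.89% fell and 27.1% rose in EBF1-dTAG_N. At such shares 5 genes are too few to show a lack of falls in either line, and in EBF1-dTAG_C so are the 52. For the ETS core the medians were 0.09 with (21 genes) and 0.01 without (36 genes) in EBF1-dTAG_C. The same medians in EBF1-dTAG_N were 0.22 and 0.20. These are descriptions over few genes and were not tested.

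No falling region was the main region of its gene. The largest fall was at a region past the end of Rpl38, a large subunit protein known for its part in the translation of Hox mRNAs. It lay at chr11:114673068-114673474, with its centre 938 bp beyond the gene end and 4691 bp from the annotated start. A peak was called there in both DMSO libraries and in neither dTAG-13 library, in both lines. Its fold enrichment stood at percentiles 35.5 and 59.4 of the DMSO lists of EBF1-dTAG_C, and 46.5 and 44.2 of those of EBF1-dTAG_N. By peak calls, DMSO and dTAG-13 libraries therefore did not overlap in either line. The dTAG-13 lists were shorter, with 34382 and 34202 peaks against 40440 and 42139 with DMSO in EBF1-dTAG_C. In EBF1-dTAG_N they held 35851 and 39721 peaks against 41613 and 40166. The share of all regions with this pattern was not counted. The log2 fold change of the Rpl38 region was -2.39 (adjusted p = 0.000390, log2 CPM 3.63) in the authors' deposited table of EBF1-dTAG_C, a 5.26-fold lower accessibility. In that of EBF1-dTAG_N it was -3.84 (adjusted p = 2.21e-46, log2 CPM 3.79), or 14.3-fold lower. At the Rpl38 start, whose sequence is printed above, the deposited folds were 0.18 (adjusted p = 0.768) and -0.03 (adjusted p = 0.898), and a peak was present in all 8 libraries.

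Rpl23a, a large subunit protein near the exit of the nascent chain tunnel, fell in EBF1-dTAG_N alone. Its region at chr11:78183035-78183209 had a fold of -1.27 (adjusted p = 2.58e-07, log2 CPM 3.34) in the authors' deposited table. A peak was called there in the first DMSO library of that line only, at percentile 2.1, and the EBF1-dTAG_C table held no overlapping region. The main Rpl23a region had deposited folds of -0.25 (adjusted p = 0.628) in EBF1-dTAG_C and -0.12 (adjusted p = 0.521) in EBF1-dTAG_N.

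A region past the end of Rpsa, at chr9:120133109-120133352, had the same peak pattern as that of Rpl38 without being called on the deposited scale. Its percentiles were 41.2 and 28.5 in the DMSO lists of EBF1-dTAG_C and 50.3 and 44.7 in those of EBF1-dTAG_N, with no peak after dTAG-13 in either line. How common this pattern is among all regions was not counted. The authors' deposited table gave -1.20 (adjusted p = 0.0611) in EBF1-dTAG_C and -0.44 (adjusted p = 0.206) in EBF1-dTAG_N. At the Rpsa start the percentiles were 87.5 and 91.9 with DMSO and 92.2 and 85.4 after dTAG-13 in EBF1-dTAG_C, so that the groups overlapped.

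**Figure D3:**
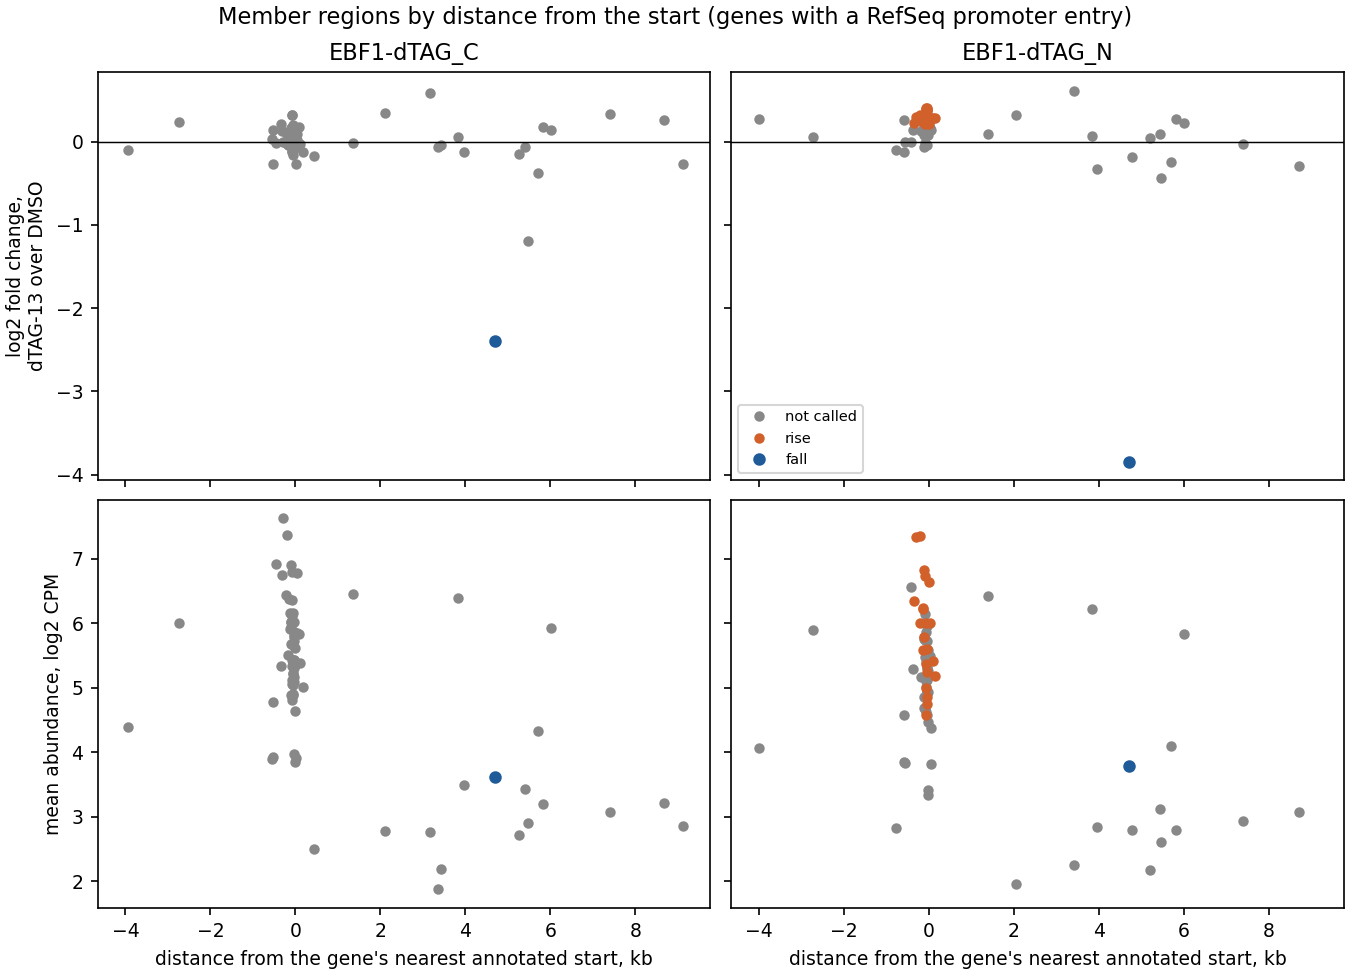
Log2 fold change (upper panels) and mean abundance in log2 CPM (lower panels) of the regions of genes with a RefSeq promoter entry, by distance in kb of the region's centre from the nearest annotated start, positive downstream. Regions at the starts had a median fold of 0.02 in EBF1-dTAG_C and 0.21 in EBF1-dTAG_N. The single fall is the region past the end of Rpl38, at -2.39 in EBF1-dTAG_C and -3.84 in EBF1-dTAG_N.

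Few of the falls could be placed relative to a start. At annotated starts, 60 regions in each of the authors' deposited tables had median folds of 0.02 in EBF1-dTAG_C and 0.21 in EBF1-dTAG_N. Of these, 0 fell in either table, against 2.11% and 6.89% of regions near any gene. In EBF1-dTAG_N 22 rose (36.7%), against 27.1% near any gene and 43.3% of such regions with a log2 CPM of at least 5. With centred folds 0 of the 60 rose. Away from the starts, 19 and 17 regions had medians of -0.04 and 0.05, with 1 fall in each table and 0 rises. These regions were also less abundant, with a median log2 CPM of 3.22 against 5.43 in EBF1-dTAG_C, and the part of abundance in the difference was not tested. The remaining 25 and 27 regions belonged to genes without a promoter entry and have no known position relative to a start. They held 1 of the 2 falls of EBF1-dTAG_C, and 2 of the 3 falls (7.41% of the 27) and 8 of the 30 rises of EBF1-dTAG_N. The placed falls are thus the 1 region past the end of Rpl38.

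The 1 kb limit bears on the falling counts. Just inside it was the Rpl38 region at 938 bp. Just outside it, at 1058.5 bp from the end of Rps19, a region of the authors' deposited table of EBF1-dTAG_N fell by 4.16 on the log2 scale (adjusted p = 1.36e-21). Its only peak was in the second DMSO library, at percentile 0.6. Within 2 kb, falling regions were added at Rpl19 (-1.53, adjusted p = 0.00588) and Rpl7a (-1.89, adjusted p = 0.00657) in the authors' deposited table of EBF1-dTAG_C. In that of EBF1-dTAG_N, Rpl19 had -1.45 (adjusted p = 1.41e-09) and Rpl7a -1.41 (adjusted p = 9.83e-05). The folds at the starts of these genes, Rpl19 0.24 (adjusted p = 0.738) and Rpl7a 0.16 (adjusted p = 0.785) in EBF1-dTAG_C, were not called in the authors' deposited table.

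**Figure D4:**
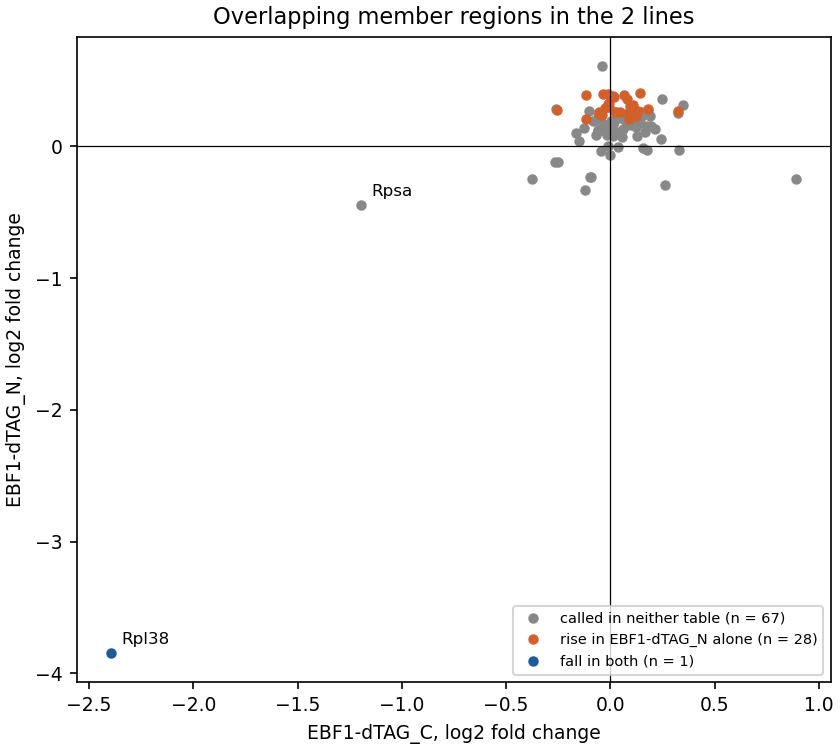
Log2 fold change in EBF1-dTAG_C (horizontal) and EBF1-dTAG_N (vertical) of 96 of the 100 ribosomal protein gene regions that overlap between the tables. Most points lie in a cloud near the table medians of 0.09 and 0.17, with 28 regions rising in EBF1-dTAG_N alone. Rpl38 and Rpsa lie apart at the lower left.

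The lines ranked the regions alike by abundance and not by fold. Over 100 overlapping regions the log2 CPM values had a Pearson r of 0.99. The folds had a Pearson r of 0.80 and a Spearman rho of 0.18, which became 0.24 and 0.13 over the 98 regions that fell in neither table. Over 59 regions with a log2 CPM of at least 5 in both tables they were 0.03 and 0.05. Regions within a table share its libraries, so that these values describe the 2 tables only. Of the 30 rises of EBF1-dTAG_N, 29 had an overlapping region in EBF1-dTAG_C, where 17 had a positive fold and the median was 0.02. Whether the lines differ was not tested, and the precision of the tables is unequal.

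Other genes of the translation apparatus were counted in the same way. Of 23 translation factors and other oligopyrimidine genes, 1 had a falling region in both lines, Eif3k, a subunit of initiation factor 3. Its falling region had folds of -0.72 (adjusted p = 0.00196) and -0.61 (adjusted p = 2.22e-18) in the authors' deposited tables of EBF1-dTAG_C and EBF1-dTAG_N, at log2 CPM values of 7.19 and 7.01, while another Eif3k region had 0.14 and 0.09. Whether the regions of these other genes also lay near a further gene was not examined, so the fall is not assigned to Eif3k alone. In EBF1-dTAG_N 8 of the 23 genes rose, among them Eef1a1, the elongation factor that delivers aminoacyl-tRNA (0.26, adjusted p = 0.00742), Eef2 (0.24, adjusted p = 0.00290) and Npm1 (0.29, adjusted p = 0.00367) in the authors' deposited table. The rising share of the list's regions was 29.0%, against 27.1% near any gene. With folds centred on the table median 0 of these genes rose and 2 fell, Eif3k and Naca. Of 26 ribosome assembly genes, 25 had a region. None fell in either line, and in EBF1-dTAG_N 11 rose, among them Ncl, which encodes nucleolin (0.26, adjusted p = 0.000103 in the authors' deposited table). The rising share of regions was 34.4%, against 27.1% near any gene. With centred folds 0 rose and 2 fell, Wdr12 (centred adjusted p = 0.00974) and Gnl3 (centred adjusted p = 0.0146).

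Of 78 mitochondrial ribosomal protein genes, which serve a separate ribosome, 74 had a region in EBF1-dTAG_C and none rose or fell. In EBF1-dTAG_N 20 rose and 2 fell. By region, 22.2% rose and 2.22% fell, against 27.1% and 6.89% near any gene. With centred folds 3 genes rose (Mrps28, Mrpl10 and Mrps18b) and 3 fell (Mrpl11, Mrpl27 and Mrpl14). The deposited falls were at Mrpl11, in a region with a fold of -5.50 (adjusted p = 4.46e-25, log2 CPM 2.54), and at Mrpl27 (-0.71, adjusted p = 3.68e-06) in the authors' deposited table. A more abundant Mrpl11 region (log2 CPM 4.91) had a fold of -0.001 (adjusted p = 0.995) in the same table. In EBF1-dTAG_C the 3 lists had median folds of 0.08, 0.05 and 0.05, beside 0.02 for the ribosomal protein genes and 0.08 near any gene. For EBF1-dTAG_N the same values were 0.22, 0.21 and 0.19, beside 0.19 and 0.18.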

How the data were processed

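The study measured chromatin accessibility in 8 libraries, whose titles give the line and the treatment. Those titles call the controls 0 h, but by the treatment label they had DMSO for 6 h, and this label was followed. Per the submitters' processing notes, which give no roles, edgeR 3.32.0, MACS2 2.2.7.1, Bowtie2 2.3.5.1, deepTools 3.3.2 and SAMtools 1.10 were used with GRCm38 (mm10). The sources used here do not give how reads were filtered or Tn5 sites shifted. The series calls the replicates biological without naming cultures. The names inside 2 EBF1-dTAG_C peak lists carry other replicate numbers than the labels, which were followed.

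The authors deposited 1 comparison table per line, with log2 fold changes, log2 CPM, a p-value, an adjusted p-value and an F score per region, and 1 peak list per library with a fold enrichment and a −log10 of the p-value and of the q-value. Since the tables hold nothing for single libraries, regions were not tested again. Repeated entries (8 and 12) were counted once, which left 54239 and 55193 regions, and the adjusted p-values were recomputed from the p-values over them. Solving each p-value and its F gave degrees of freedom of 11.2 in EBF1-dTAG_C and 110386 in EBF1-dTAG_N, so that the spread of the latter was pooled over regions. The approximate standard error was the absolute fold divided by the root of F. It was used for intervals and for centred folds, after the step was tested on simulated data. The simulation had few degrees of freedom and large changes. It therefore does not cover the pooled spread or the small folds of EBF1-dTAG_N. A call is an adjusted p under 0.05 over the whole table.

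The members and lists were chosen with earlier results of these data known. Named are members called in EBF1-dTAG_C, the 8 rising and falling ones with the smallest adjusted p in EBF1-dTAG_N, those called alike in both tables, the 6 most and least abundant, the stalk genes and Rpsa, and the members without a region. Of these members and those drawn gene by gene, 3 are counted but not reported here singly. The regions at Rps2, Rps27l, Rpl19 and Rpl7a, and Rps19 beyond 1 kb, were singled out after their values were seen, as were single genes of the other lists and the placing of Rpl34-ps1, Rpl31-ps12, Rpl32l, Rpl37rt and Rps23rg1 among the paralogues. Coordinates are 1-based. Peak counts were compared by exact permutation tests, which 2 libraries against 2 keep above the 0.05 threshold. Replicate numbers were not used as pairs in the main tests (correlation of deviations -0.20 in EBF1-dTAG_C and -0.00 in EBF1-dTAG_N). Whether the numbers are crossed in EBF1-dTAG_C, where names inside 2 lists differ from the labels, cannot be told from these values. Python 3.11.15, pandas 2.3.3 and SciPy 1.17.1 were used.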

Additional observations from a re-analysis of the deposited data

How the results depend on the processing

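The tables hold no value per library, so folds could not be recomputed without a replicate and depth is unknown. Of 59 alternatives over 8 results, 38 were labelled the same as the main value. That label meant a count equal or close to the main one, a median moved by at most 0.05, or a peak difference of the same sign. The number of falling genes in EBF1-dTAG_C (2) became 0 within 500 bp, with the most abundant region alone and at promoter-table starts, and 4 within 2 kb. In EBF1-dTAG_N (3) these were 1, 0, 0 and 6. The 30 rising genes of EBF1-dTAG_N became 0 with centred folds, 1 with a fold of at least 0.5, and 16 with F read against the degrees of freedom found for EBF1-dTAG_C. The median fold in EBF1-dTAG_C (0.02) became -0.0664 centred on the table and -0.0567 centred on gene-proximal regions, and in EBF1-dTAG_N (0.19) it became 0.0200 and 0.0084. The causes were not tested. The difference in genes with a peak (-0.5) became 0 in both lines at a −log10 q of at least 10, and in EBF1-dTAG_C 0 within 500 bp and 0.5, the other direction, with equal numbers of best peaks. Without each replicate in turn it ranged from 0 to -1 in EBF1-dTAG_C and from 0 to -1 in EBF1-dTAG_N: it was 0 without EBF1-dTAG_C dTAG-13 replicate 1 or EBF1-dTAG_N DMSO replicate 1. With the replicate block it stayed at -0.5 in both lines (exact permutation p = 1), and with crossed numbers in EBF1-dTAG_C at -0.5. The promoter-table, crossed and abundance-limited settings were added after seeing the data.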

Other observations

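Regions at annotated starts that the gene spans leave out belong to no count of the report. They were found at Rpl18, Rpl19, Rpl22, Rpl38, Rps2 and Rps27l in EBF1-dTAG_C, with folds from 0.03 at Rpl38 to 0.24 at Rpl18 in the authors' deposited table and none called. In EBF1-dTAG_N the regions at Rpl22 (0.34, adjusted p = 0.00822 in the authors' deposited table) and Rps27l (0.25, adjusted p = 0.0431) were called rising. With them, the 66 regions at annotated starts had folds from -0.27 to 0.32 in EBF1-dTAG_C and from -0.12 to 0.41 in EBF1-dTAG_N. Of these, 0 fell in either of the authors' deposited tables, against 2.11% and 6.89% of regions near any gene. Rpl17, whose strand and start were not read here, had a region inside its span with deposited folds of 0.05 and 0.18 (adjusted p = 0.423).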
